A study of Arabidopsis thaliana with 12 samples.

Results

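The Calvin cycle genes PRK (AT1G32060) and SBPASE (AT3G55800) were followed in Arabidopsis thaliana, as the probes of the array whose platform annotation lists only that gene. The rule gave 2 probes, probe 3151 for PRK and probe 1517 for SBPASE, of 3439 probes in all, 692 of which list 1 gene and cover 691 genes. PRK was measured on every array and SBPASE was listed at 0 on every array, so a comparison between the genotypes exists for PRK alone. Total RNA came from 6 samples of the psae2 mutant and 6 of the wild type (WT), both in ecotype Columbia 0. Per the labels the mutant lacks PSI-E2, a stromal subunit of photosystem I. The sources used here name no psae2 allele, plant age, tissue or light conditions, and do not say what the sample numbers 1 to 6 stand for.

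The Calvin cycle fixes carbon dioxide in the chloroplast stroma. Its last phase, regeneration, turns triose phosphates back into ribulose bisphosphate, the acceptor that rubisco carboxylates. SBPASE encodes sedoheptulose-bisphosphatase, which commits carbon to regeneration by removing a phosphate from sedoheptulose bisphosphate. PRK encodes phosphoribulokinase, which spends ATP on the final step, the phosphorylation of ribulose 5-phosphate. Both enzymes are switched on in the light by reduced thioredoxin, whose electrons come from photosystem I through ferredoxin, and PRK is held inactive in the dark in a complex with glyceraldehyde-3-phosphate dehydrogenase and the small protein CP12. The arrays report transcript levels and say nothing of this control of the enzymes.

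PRK transcript was higher in psae2 over the 12 samples, 1.25-fold after normalization (adjusted p = 0.0412 in limma). On the normalized scale the excess lay in samples 1 to 4 of each genotype and not in samples 5 and 6. Before normalization the ratios at numbers 5 and 6 were 1.11 and 1.09. The call did not hold with the replicate number as a block (adjusted p = 0.0534 in limma) or with look-alike numbers averaged (0.317). In the values as the authors deposited them, linear intensities whose unit is not given, PRK was at 1.76 in the lowest psae2 sample, 2.12 at the median and 2.46 in the highest, against 1.45, 1.57 and 1.81 in WT. These values lay 17.8 to 30.8 times above the floor of their array, the 5th percentile of its positive values, so dimness did not limit this probe. The ranges overlapped by 1 sample on each side. Of the psae2 samples 5 of 6 lay above every WT sample, and of the WT samples 5 of 6 lay below every psae2 sample. In plant RNA such as this, a change in the share of green cells and a change in PRK RNA per cell cannot be told apart.

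**Figure D1:**
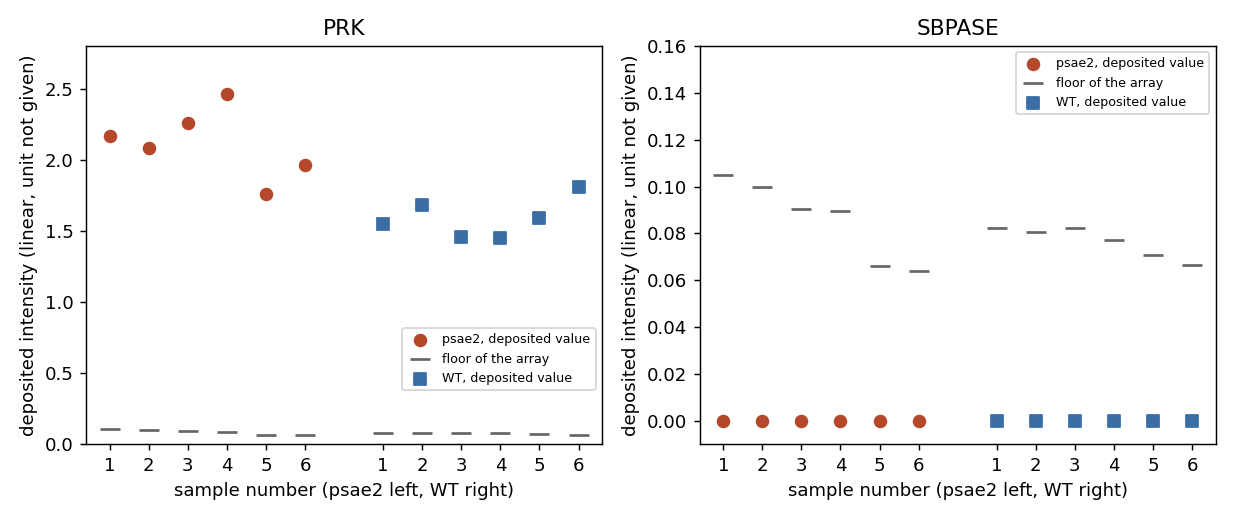
Deposited intensity of the PRK probe (left) and the SBPASE probe (right) in each sample, psae2 as circles and WT as squares, by sample number, with the floor of each array as a grey dash. PRK lies between 1.45 and 2.46, far above the floors of 0.0638 to 0.105, and SBPASE is at 0 in all 12 samples. The right panel has a much finer scale.

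The array medians also differed between the genotypes, so values were put on 1 scale by quantile normalization of log2 intensities before testing. On that scale PRK was at 0.86 in the lowest psae2 sample, 0.96 at the median and 1.26 in the highest, and at 0.50, 0.62 and 1.02 in WT. Here 2 of 6 psae2 samples lay above every WT sample, and 5 of 6 WT samples lay below every psae2 sample. The group means were 1.02 ± 0.15 in psae2 and 0.70 ± 0.20 in WT (SD, n = 6 each). The log2 difference, psae2 minus WT, was 0.32 with a standard error of 0.10 and a 95% confidence interval of 0.10 to 0.54, which is 1.25-fold with an interval of 1.07 to 1.46. Its adjusted p of 0.0412 in limma treats the 12 samples as independent. Among the 3009 probes and genes tested in that fit 671 passed, which is 22.3%, and 11.9% were called higher in psae2. A single call is thus read against a comparison in which calls were frequent.

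Among those 671 calls PRK was near the margin, at rank 622 by p. Its difference was larger in size than 67.9% of all differences, whose median size was 0.209, but only 105 of the 671 calls had a smaller one. The standard error of PRK was somewhat under the median of 0.124 over everything tested. An exact permutation test of the PRK values over the 12 samples gave a two-sided p of 0.0195, where 0.00216 is the smallest possible.

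The 12 samples were not alike in their independence. Within a genotype, samples 1 and 2, 3 and 4, and 5 and 6 resembled each other like repeats, and samples of the same number resembled each other across genotypes. Averaging such numbers left 3 values per genotype, of 1.02 ± 0.15 in psae2 and 0.70 ± 0.21 in WT (SD, n = 3 sets each). The difference of 0.32 then had an interval of -0.04 to 0.68 and an adjusted p of 0.317 in limma, where 2.63% of everything tested was called. With all 12 samples and a block for the replicate number the adjusted p was 0.0534, although 33.6% of everything tested was called in that fit. With each set of numbers within a genotype as a random block it was 0.19, in a fit that does not pair the genotypes by number. Over the 6 set means the exact permutation p was 0.3, and 0.1 is the smallest that 3 against 3 can give. Flipping signs within the 6 numbers gave an exact two-sided p of 0.0938, and within the 3 sets of numbers one of 0.5, where 0.0312 and 0.25 are the smallest possible. The tests over set means and over 3 sets could thus not reach 0.05 whatever the values. Flipping signs within the 6 numbers gave an exact p of 0.0312 on the values as deposited, the smallest possible, and of 0.125 with median centring. Such flips treat look-alike numbers as independent. The deposited values also keep the higher array medians of psae2, by 1.14-fold to 1.18-fold at the 6 numbers. Of the limma fits on the normalized scale, the block, the averaged numbers and the random block each ended the call.

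The excess of PRK varied by sample number. In samples 1 and 2 PRK stood at 0.94 and 0.94 in psae2 and at 0.50 and 0.63 in WT, a mean difference of 0.37. In samples 3 and 4 it stood at 1.14 and 1.26 in psae2 and at 0.60 and 0.60 in WT, a difference of 0.60 or 1.51-fold. In samples 5 and 6 it stood at 0.86 and 0.99 in psae2 and at 0.85 and 1.02 in WT, a difference of -0.01. The gap between the 2 numbers of a set was at most 0.16 in either genotype, and it may be technical spread only. Between sets, the means ranged over 0.27 within psae2 and over 0.37 within WT, so the difference in samples 1 and 2 was no larger than the range of the WT sets. Whether the sets differ was not tested, because the numbers were grouped from the data and each set may hold only 1 independent sample per genotype.

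In order of level, psae2 samples 3 and 4 came first with a mean of 1.20. A cluster of 3 followed within 0.01 of each other, WT samples 5 and 6 and psae2 samples 1 and 2 with 0.94 each and psae2 samples 5 and 6 with 0.93. WT samples 3 and 4 with 0.60 and WT samples 1 and 2 with 0.57 came last. Within the middle cluster, and between the last 2 sets, neighbours differed by less than the largest gap within a set. In samples 5 and 6 WT was 0.34 to 0.37 higher than in its other sets, while psae2 differed by -0.27 from its samples 3 and 4 and by -0.01 from its samples 1 and 2. Of the 671 calls, 665 had the same sign in all 3 sets of numbers, and PRK was 1 of the 6 that did not. The calls were made from these same samples, which favours a shared sign, and the share over everything tested is not given. PRK missed the shared sign by its difference of -0.01 in samples 5 and 6.

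**Figure D2:**
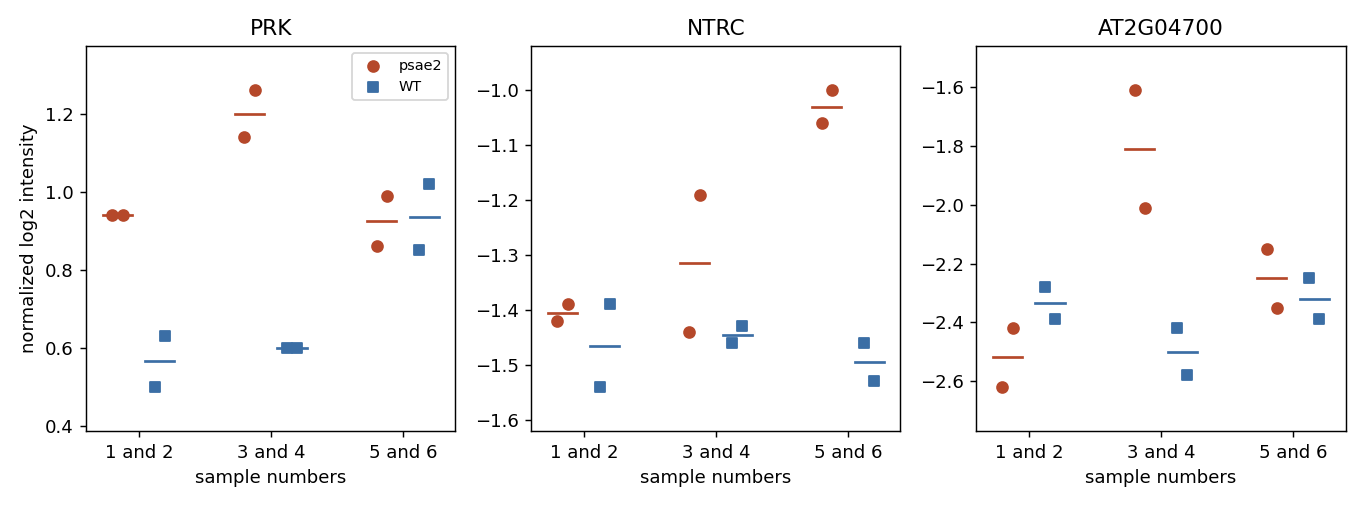
Normalized log2 intensity of PRK, NTRC and AT2G04700 by set of sample numbers, psae2 as circles to the left and WT as squares to the right, with a line at the mean of each set. For PRK the psae2 points lie above the WT points in samples 1 to 4 and among them in samples 5 and 6. The NTRC points lie furthest apart in samples 5 and 6, and those of AT2G04700 in samples 3 and 4.

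The scaling of the arrays bears on the third set. As deposited, PRK was higher in psae2 at 6 of 6 numbers, by 1.09-fold to 1.70-fold. At numbers 5 and 6 PRK was at 1.76 and 1.96 in psae2 against 1.59 and 1.81 in WT, ratios of 1.11 and 1.09. The median of the whole array was higher in psae2 too, by 1.14-fold to 1.18-fold at the 6 numbers. At numbers 5 and 6 PRK thus exceeded WT by less than the array median did, and at numbers 1 to 4, with ratios of 1.40, 1.23, 1.54 and 1.70, by more. WT arrays 5 and 6 had the lowest medians of the 12, 0.304 and 0.305, and normalization moved their PRK values by 0.18 and 0.16 in log2, against -0.14 to 0.07 for the other WT arrays.

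Without normalization the difference of PRK was 0.41 with an adjusted p of 0.00753 in limma, while the median over everything tested stood at 0.173, so PRK exceeded that common shift by 0.23. Centring the arrays on their medians gave a difference of 0.23 as well, and the adjusted p was 0.161. The direction was the same in all 31 alternatives, from 0.18 to 0.48, and the adjusted p was under 0.05 in 14 of them. Both extremes came from leaving out a set of numbers. Without numbers 3 and 4 the difference was 0.18 (adjusted p = 0.402 in limma), and without numbers 5 and 6 it was 0.48 (adjusted p = 0.0101). Leaving out 1 sample ended the call for WT sample 1, 2, 3 or 4 and for psae2 sample 3, 4 or 6, with adjusted p of 0.0614 to 0.087.

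**Figure D3:**
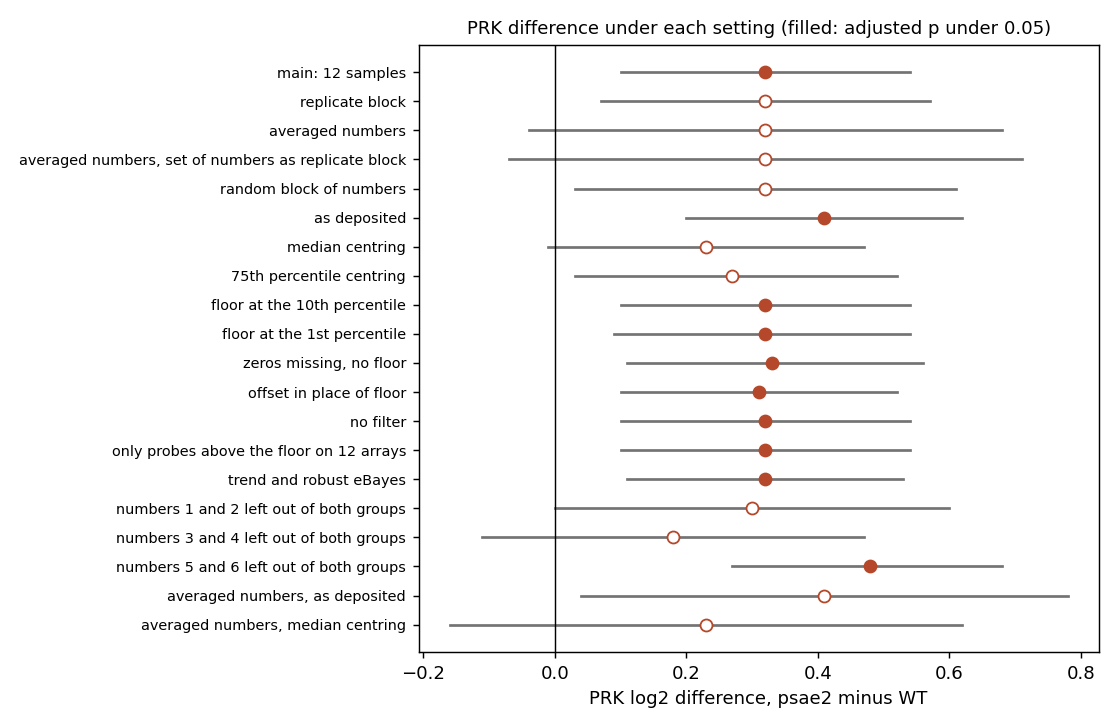
Log2 difference of PRK, psae2 minus WT, with its 95% confidence interval, under the 12-sample fit at the top and under other settings below it. Filled points have an adjusted p under 0.05 in limma and open points do not. All points lie to the right of 0, and the interval reaches 0 where numbers are averaged on the normalized or centred scale, with median centring, and without numbers 1 and 2 or 3 and 4.

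SBPASE was listed at exactly 0 in 6 of 6 psae2 samples and 6 of 6 WT samples. It was under the floor at every setting of the floor, the 1st, 5th or 10th percentile of the positive values, and it was not tested. A fold change between the genotypes cannot be given, and the listed values show neither a rise nor a fall of the transcript in psae2. Were the 0 a reading, a rise above the floor in psae2 would have been listed, but a fall from 0 could not be. The floors of 0.0638 to 0.105 are a cut of the processing, and 149 to 152 positive values per array lay below them. A difference that stayed below the floors would not be tested. The files do not say whether a 0 stands for a spot with no signal over background, for a clipped negative value or for a spot without a reading. The smallest positive value of an array ran from 5.65e-05 to 0.00237.

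The zeros of SBPASE were of a common kind. Of the 692 probes with 1 listed gene, 60 were at 0 on all 12 arrays, which is 8.67%, against 7.76% of all 3439 probes. A further 578 were at 0 on no array, and only 54 were at 0 on some arrays and not on others. Over the 12 arrays together, a probe was thus mostly either always at 0 or never. Of all 3439 probes, 408 to 441 were at 0 on a psae2 array and 448 to 472 on a WT array. The reference gives a name beyond the locus to 6 of the 60 genes, which are SBPASE, SPPA, a signal peptide peptidase, CRR41, named for chlororespiratory reduction, CKS, a CMP-KDO synthetase, ATSIK and LrgB. The 0 of SBPASE is a listing, and it does not show that the transcript was absent from the plants. LrgB lies 2 genes from PRK in the gene order of the reference and is the only one of the 5 genes on either side of PRK with a probe of its own, a neighbour chosen after its values were seen. Of the 5 genes on either side of SBPASE, 0 had one.

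**Figure D4:**
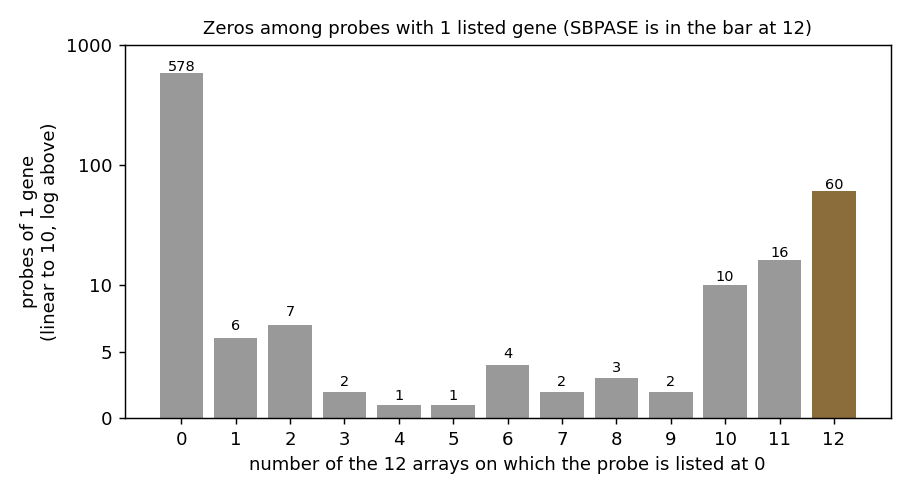
Number of probes with 1 listed gene by the number of arrays, from 0 to 12, on which the probe is listed at 0, with a vertical axis that is linear to 10 and logarithmic above. The bars at 0 arrays (578 probes) and at 12 arrays (60 probes, among them SBPASE) hold nearly all probes.

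The rest of the pathway was hardly represented. Of 14 loci of the regeneration phase, 3 had a probe of their own, PRK, SBPASE and AT5G44520, which was entered by its locus. AT5G44520 was at 0 in 6 of 6 psae2 samples and in 5 of 6 WT samples, with 0.00843 in the other WT sample, and under the floor on all 12 arrays. PRK was therefore the 1 regeneration gene tested. Of 11 loci of carbon fixation and reduction, 0 had a probe of their own, and 2 probes listed rubisco activase (RCA) together with another gene. The values of such shared probes cannot be assigned to 1 gene and are not given here. Among 11 loci of photorespiration, 8 of starch and sucrose synthesis and 8 on the ferredoxin side of photosystem I, including PSAE2 itself, 0 had a probe of their own. The labels could not be checked against the targeted transcript for that reason. Likewise, of 17 marker loci of leaf, root, flower, seed, vascular, epidermal and guard cells 0 had one, so the tissue was not checked.

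Of 12 loci of CP12 and thioredoxin regulation, 2 were measured, and neither passed. NTRC encodes a chloroplast NADPH-dependent thioredoxin reductase, which can reduce thioredoxin targets with NADPH in place of ferredoxin. It was at -1.44 in the lowest psae2 sample, -1.29 at the median and -1.0 in the highest, against -1.54, -1.46 and -1.39 in WT. The ranges overlapped, and the log2 difference of 0.22 had an interval of 0.02 to 0.41 and an adjusted p of 0.101 in limma. As deposited the NTRC difference was 0.42 with an adjusted p of 0.00586 in limma, where the median over everything tested was 0.173. With centring on the 75th percentile it was 0.29 with 0.0236. Averaging the numbers as deposited gave an adjusted p of 0.187 in limma. The NTRC call thus depended on the scaling and on treating the samples as independent. The differences in its 3 sets of numbers were 0.06, 0.13 and 0.47. NTRC thus differed most between the genotypes in samples 5 and 6, where PRK differed least.

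AT2G04700, entered in the same list by its locus, was at -2.62, -2.25 and -1.61 in the lowest, median and highest psae2 samples, against -2.58, -2.39 and -2.25 in WT. Its log2 difference was 0.19 with an interval of -0.12 to 0.51 (adjusted p = 0.376 in limma), and it lay in samples 3 and 4, with differences of -0.18, 0.69 and 0.07 in the 3 sets. Without numbers 3 and 4 the difference was -0.06. Over the lists as a whole, 5 of 64 loci had a probe of their own, 3 were tested, and 1 of those 3, PRK, was called higher and 0 lower over 12 samples, against 22.3% called of everything tested. With numbers averaged 0 of the 3 passed in limma, and the replicate block also gave 0. The median log2 difference of the 3 was 0.22, which is the value of NTRC, against 0.0128 over everything tested. With 3 genes, of which 1 was called, this does not show a shift of the lists.

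The genes whose values most resembled those of PRK were taken from the 525 genes with a probe of their own that stayed above the floor on all 12 arrays. Over the 12 samples the 5 highest Pearson correlations were 0.84 for AT1G78620, 0.84 for AT1G35210, 0.83 for AT5G40470, 0.78 for AT5G49800 and 0.77 for AT5G40070, with a range of -0.81 to 0.84 and a median of -0.01 over the 525. The points share arrays, scaling and the genotype split, so these values are descriptions. AT1G78620 was also the most different of the 5 between genotypes, with 0.59 ± 0.27 in psae2 and -0.31 ± 0.15 in WT (SD, n = 6 each) and set differences of 0.86, 1.19 and 0.67. Set differences were 0.29, 0.41 and 0.02 for AT5G49800 and 0.36, 0.36 and 0.08 for AT5G40470. They were 0.21, 0.27 and -0.11 for AT1G35210 and 0.68, 0.39 and 0.15 for AT5G40070. Each of the 5 had its lowest difference in samples 5 and 6, as PRK did, which a choice by likeness to PRK favours.

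**Figure D5:**
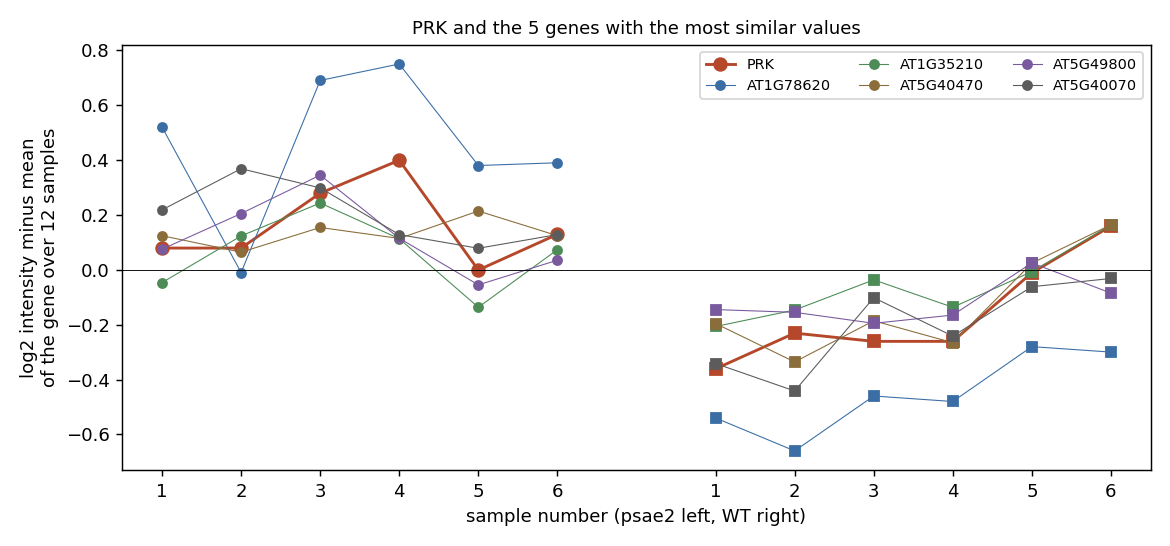
Normalized log2 intensity of PRK and of the 5 genes most correlated with it, each minus its own mean over 12 samples, with psae2 samples left (circles) and WT samples right (squares), and with thin lines that only link points of a gene. The genes were chosen for this likeness. Of the 6, AT1G78620 has the widest distance between genotypes.

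When the genotype means were taken out first, the list of like genes was nearly another one. The 5 highest correlations of deviations were 0.82 for AT1G50510, 0.82 for AT1G35210, 0.81 for AT2G35390, 0.79 for AT4G16410 and 0.78 for AT1G24360. AT1G35210 was the 1 gene in both lists. Between genotypes AT1G50510 went the other way from PRK and was lower in psae2, at -1.38 ± 0.099 against -0.87 ± 0.21 in WT (SD, n = 6 each), with a log2 difference of -0.50 (adjusted p = 0.00377 in limma over 12 samples and 0.163 with numbers averaged). AT2G35390 was at -1.32 ± 0.15 in psae2 and -1.30 ± 0.16 in WT (SD, n = 6 each). Choosing genes by deviations from the genotype means also selects for the way PRK differed between sets, so a shared order of the sets is given by the choice. The genotype differences in samples 5 and 6 were -0.82 for AT1G50510, -0.11 for AT1G35210, -0.20 for AT2G35390, -0.34 for AT4G16410 and -0.31 for AT1G24360, against -0.01 for PRK. With 3 sets of numbers per genotype such likeness rests on few independent points.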

How the data were processed

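The deposited table held 12 columns of linear intensity, 1 per sample. For background correction, scaling, array type and image analysis the sources used here give nothing, nor for the unit. Values ran from 0 to 100, column sums from 2972 to 3610, and array medians from 0.304 to 0.448. The number of arrays limits the precision.

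Probe genes came from the platform annotation (692 probes with 1 gene, 870 with several, 1877 with none), and 690 of the 692 matched the reference table of assembly TAIR10.1, used for names and gene order only. Values under the floor (5th percentile of the positive values of an array) were raised to it, log2-transformed and quantile-normalized. Probes that never reached the floor (429) were left out, and the 1 gene with 2 probes was averaged, which left 3009 entries. Genotypes were compared by limma 3.58.1 with lmFit and eBayes, run in R 4.3.3, over all 12 samples, with Benjamini-Hochberg adjustment over all entries and a threshold of 0.05. The procedure was tested on simulated data with independent errors, which does not cover errors shared between numbers. Figures were drawn with matplotlib 3.10.9.

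What a number stands for is not in the labels, and the pairing of samples by number is read from the data. Deviations from the group means correlated at 0.34 to 0.53 between same-numbered samples of the 2 genotypes. Among the samples of the other genotype, 12 of 12 samples correlated best with the one of their own number. Within a genotype the sets of numbers 1 and 2, 3 and 4, and 5 and 6 had correlations of 0.24 to 0.71, and other samples had -0.68 to -0.12. Deviations from a mean of 6 samples sum to 0 for each probe, which by itself pushes correlations within a genotype below 0. P-values cover only array-to-array spread, and that may be technical.

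Members, lists, number sets and alternatives were chosen with earlier results of these data known. Named genes were both members, every list gene with a probe of its own, and the 5 genes most correlated with PRK over 12 samples and over deviations from group means.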

Additional observations from a re-analysis of the deposited data

How the results depend on the processing

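The PRK difference of 0.32 kept its direction in 31 of 31 alternatives and lost its call in 17. It stayed at 0.32 and lost the call with the replicate block, with averaged numbers, with averaged numbers and their set as a block, and with the random block, which change the error only. It was 0.27 with centring on the 75th percentile, 0.23 with median centring, 0.30 without numbers 1 and 2, 0.18 without numbers 3 and 4, and 0.27 to 0.38 with 1 sample left out. Combinations added after seeing the data, averaged numbers as deposited or median-centred, gave 0.41 and 0.23, also without a call. The exact permutation p over 12 samples, 0.0195, was 0.0693 with median centring, 0.114 without numbers 1 and 2, 0.229 without numbers 3 and 4, and 0.00216 to 0.0325 with 1 sample left out.
The 671 calls over all entries became 1010 with the replicate block, 79 with averaged numbers, 44 with their set as a block, 181 with the random block, 284 without numbers 3 and 4, 29 and 62 with averaged numbers as deposited and median-centred, and 552 to 668 with 1 sample left out. Of these calls 53.4% were higher in psae2, against 84% as deposited. The 1 call in the pathway lists became 2 as deposited, with NTRC, and 0 wherever PRK lost its call except with centring on the 75th percentile, where NTRC passed, and 0 to 1 with 1 sample left out. AT2G04700 turned to -0.06 without numbers 3 and 4. The replicate block changed no other named call of the lists. SBPASE was detected on 0 of 12 arrays under every floor tried. Beyond what each setting changes by construction, the cause was not tested.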
